A study of Mus musculus with 32 samples.

Results

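Dppa2, Dppa3, Dppa4 and Dppa5a are developmental pluripotency-associated genes, a name given to genes found active in pluripotent cells of the mouse embryo and silent in most adult tissues. They were taken by gene symbol from a table of polyA RNA sequencing that lists 55492 genes, and all 4 were present. The shared name is not a shared ancestry. Dppa2 and Dppa4 are related to each other, while Dppa3 and Dppa5a belong to other families.

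The libraries came from mouse embryonic stem cells (ESCs, day 0) and from retinal organoids grown from them (days 2, 4 and 6), in 4 kinds of culture. The Rx:GFP line, with the genotype WT, is the control. KO is a line labelled as a Mettl3 knockout, Mettl3 being the gene of the methyltransferase that places N6-methyladenosine on messenger RNA. The remaining cultures are both the Mettl3 KO with WT MTL3-GRBD OE, an overexpressed METTL3 fused to a domain called GRBD, either without dexamethasone (no Dex) or with it (Dex, 10 µM). Per the labels, this protein is cytosolic in the absence of Dex and translocates to the nucleus when Dex is given. The differentiation medium of all lines held AGN at 0.1 µM. Dex is listed for 2, 4 and 6 days of treatment, although a day 0 group also carries a Dex label, and the labels were followed here. The promoter that drives the fusion, and whether a line is a single clone, are not given in the sources used here. Each of the 16 groups had 2 libraries, made in separate rounds of library preparation and sequencing. The labels do not say that the duplicates were separate cultures, so p-values speak only for the spread between these libraries.

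DPPA2 and DPPA4 are nuclear proteins with a SAP domain that bind chromatin as a pair. They are known for keeping developmental promoters in a state that can be activated, and for switching on genes of the 2-cell embryo, Dux and the Zscan4 cluster among them. DPPA3, also called STELLA or PGC7, is a small maternal protein that helps to protect the maternal genome of the zygote from demethylation. In stem cells and oocytes it binds UHRF1 and restrains DNA methylation by DNMT1. It also marks early germ cells. DPPA5A, also called ESG1, is a KH-domain RNA-binding protein and one of the most abundant transcripts of mouse stem cells.

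The libraries held an estimated 26.6 to 54.4 M fragments (M, mega), and duplicates correlated across genes at r = 0.992 to 0.996. Mettl3 itself was not lower in KO. It stood at 36.8 and 33.2 FPKM (fragments per kilobase of transcript and per M mapped fragments) in WT at day 0 and at 43.8 and 42.9 FPKM in KO, so the transcript level does not check the KO label, and "KO" below means the libraries labelled so. In no Dex it stood at 68.5 and 71.8 FPKM and in Dex at 75.1 and 75.0 FPKM at day 0. Stem cell identity was checked with Pou5f1, which encodes OCT4, at a mean of 884.0 FPKM in WT at day 0. Organoid identity was checked with 9 eye field genes, whose summed level in WT was 21.5 to 23.0 FPKM at day 0 and 783 to 818 FPKM at day 6. At day 6 that sum was 323 to 324 FPKM in KO, 366 FPKM in both no Dex libraries and 599 FPKM in both Dex libraries. Otx2 and Pax6 made up most of it in KO, at means of 203.1 and 111.7 FPKM, and in no Dex, at 167.9 and 154.5 FPKM. In WT they stood at 104.8 and 110.1 FPKM. Rax had means of 118.2 FPKM in WT, 0.30 in KO, 0.91 in no Dex and 54.7 in Dex. Lhx2 had 234.0, 4.97, 17.3 and 154.6 FPKM. The sum thus does not stand for each eye field gene.

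In GRCm38, annotated by GENCODE M21, Dppa4 (ENSMUSG00000058550) lies at chr16:48283733-48294237 and Dppa2 (ENSMUSG00000072419) at chr16:48303908-48319723, both on the plus strand. The 9670 bp between them hold no annotated gene. Dppa3 (ENSMUSG00000046323) lies on the plus strand at chr6:122626410-122630272. Its end is 77216 bp from the start of Nanog, the homeobox gene of the pluripotency network, with 2 predicted genes in between. Dppa5a (ENSMUSG00000060461) lies on the minus strand at chr9:78367052-78368177. Their longest coding transcripts measure 2447 nt for Dppa2, 1479 nt for Dppa4, 833 nt for Dppa3 and 619 nt for Dppa5a. FPKM of transcripts as short as the last pair depends on how the fragment length is subtracted from the transcript length.

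In WT stem cells the genes differed widely in level per length. Dppa5a was at 1697.35 and 1609.04 FPKM and ranked 83rd among all genes by mean FPKM. Dppa4, at 231.23 and 211.37 FPKM, ranked 581st, and Dppa2, at 132.10 and 118.22 FPKM, ranked 1049th. Dppa3, at 5.41 and 5.89 FPKM, ranked 8717th of 12877 genes with a mean of at least 1 FPKM. The WT duplicates of no 2 of these genes overlapped, so the order Dppa5a, Dppa4, Dppa2, Dppa3 was the same in both. In the 3 other cultures this order at day 0 was also the same in each library, although the gap from Dppa2 to Dppa3 narrowed because Dppa3 was higher there. By day 6 in KO, no Dex and Dex, Dppa3 stood above both Dppa4 and Dppa2 in every library, whereas in WT it stood below Dppa4 and above Dppa2.

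The other rows with a Dppa symbol were near or at zero. Dppa1, and the Dppa5a copies Dppa5b and Dppa5c, annotated as pseudogenes on chromosome 9, were listed at 0 in all 32 libraries. At these depths 3 fragments would read as 0.043 to 0.088 FPKM for Dppa1 and 0.80 to 2.35 FPKM for the short copies, which bounds what a 0 can hide. Dppa3-ps, a pseudogene on chromosome X, was above 0 in 4 libraries and reached 0.17 FPKM, about 1 fragment. Near-identical copies can take reads from the parent gene, depending on how the authors assigned reads that fit both, and how they did so is not given in the sources used here. The members were detected in every library. The lowest value of any was 0.20 FPKM, for Dppa2 in no Dex at day 6, about 16 fragments.

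**Figure D1:**
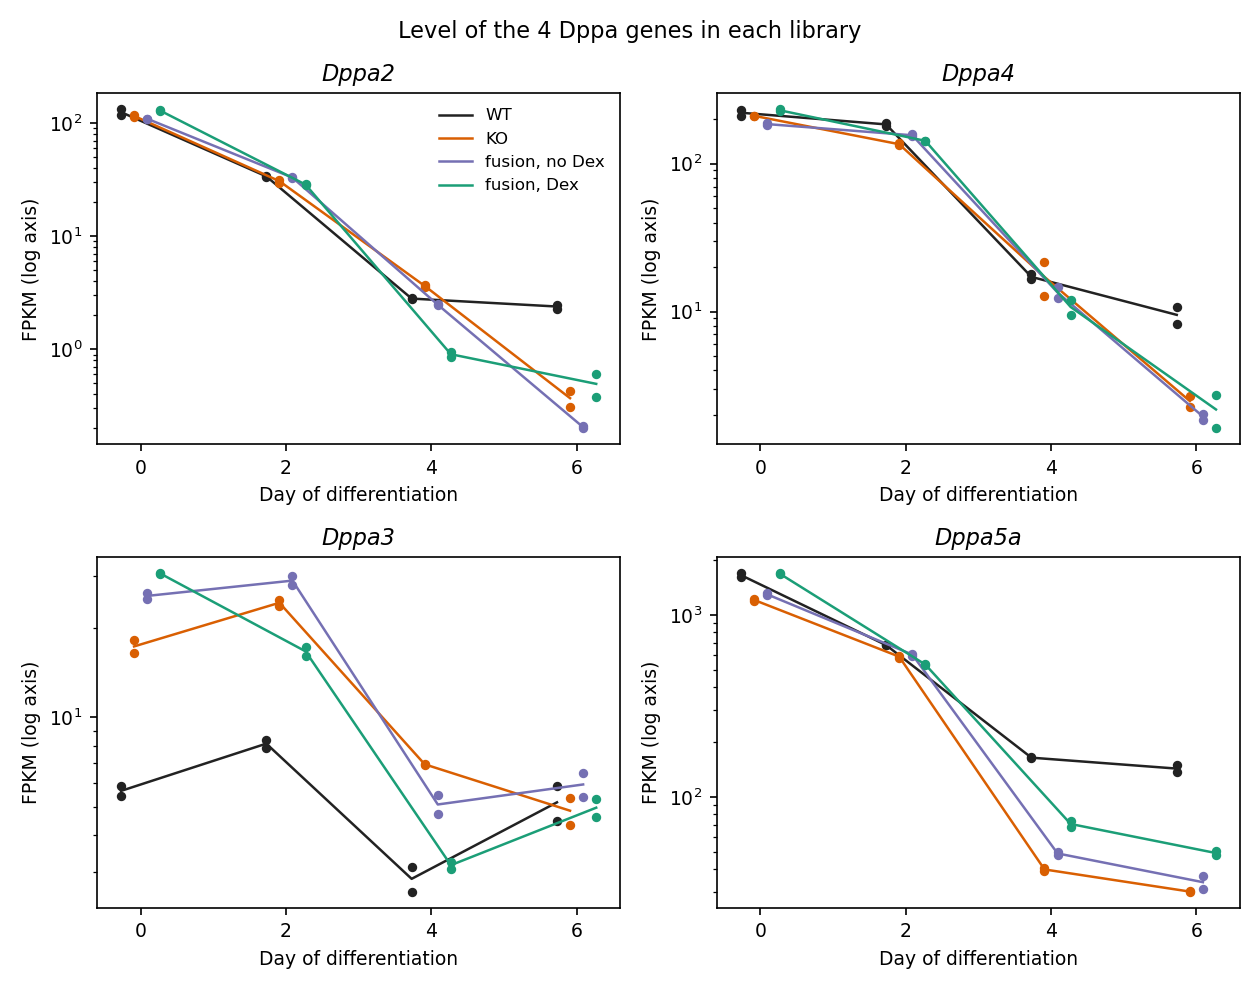
FPKM (log axis) of the 4 genes by day of differentiation, with a point for each library, a line through the means of the 2 libraries of each group, and small sideways offsets to separate the lines. Dppa2, Dppa4 and Dppa5a descend in all 4 cultures, with WT highest at day 6, while Dppa3 starts lowest in WT and its libraries lie between 4.34 and 6.50 FPKM in all cultures at day 6.

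During differentiation Dppa2, Dppa4 and Dppa5a lost most of their level in all cultures. Differences between days were tested in each culture with limma on log2(FPKM + 1), with Benjamini-Hochberg adjustment over 16276 genes, and an adjusted p under 0.05 counted as a call. Most genes changed at every step, so a call on its own says little, and sizes matter more. From day 0 to day 2 the share of all genes called was 63.4% in WT, 65.6% in KO, 67.9% in no Dex and 60.6% in Dex, and 3, 4, 2 and 4 of the 4 Dppa genes were called. From day 2 to day 4 the shares were 59.9%, 64.2%, 60.8% and 66.7%, and all 4 genes fell in every culture. From day 4 to day 6 they were 66.7%, 65.3%, 67.9% and 65.1%, and 4, 4, 3 and 4 of the genes were called. The median change of the 4 genes from day 2 to day 4 lay between -3.37 and -2.62 on the log2 scale, where the median over all genes lay between 0.03 and 0.09. Counts of called members are thus to be read against shares of about 60% or more. In bulk RNA, fewer cells of a type and less RNA per cell cannot be told apart.

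Dppa2 was already far down at day 2. In WT it was at 33.94 and 33.71 FPKM at day 2, 27.0% of its day 0 mean, then at 2.85 and 2.77 FPKM at day 4 and at 2.49 and 2.29 FPKM at day 6. Its fall from day 2 to day 4 in WT, by 3.19 ± 0.0612 (log2 ± SE, limma, adjusted p = 1.16e-18), was the 9th largest among all genes tested, and in Dex, where it fell by 3.96, the 4th largest. From day 4 to day 6 the WT level changed little, falling by 0.17 (adjusted p = 0.0206, but 0.117 with a pseudocount of 0.1). In the same interval KO went from 3.69 and 3.58 FPKM to 0.43 and 0.31 FPKM, and no Dex from 2.45 and 2.51 FPKM to 0.21 and 0.20 FPKM. These steps were -1.76 and -1.53, and -3.00 and -3.08 with a pseudocount of 0.1. Dex had already reached 0.86 and 0.95 FPKM at day 4 and was at 0.61 and 0.38 FPKM at day 6 (-0.35, and -0.78 with a pseudocount of 0.1).

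Dppa4, the chromatin partner of DPPA2 and its neighbour on the chromosome, went down later. At day 2 it still stood at 181.21 and 187.63 FPKM in WT, 83.3% of day 0, and its change from day 0 was not called there (-0.26 ± 0.175, adjusted p = 0.207) or in no Dex (-0.25, adjusted p = 0.217). It was called in KO, where it fell by 0.63 (adjusted p = 0.00356), and in Dex, where it fell by 0.68 (adjusted p = 0.00226). Tested on the libraries of each pair alone, the WT and no Dex changes also passed, with adjusted p = 0.0353 and 0.0059. Between days 2 and 4 the change of Dppa4 was -3.35 in WT, -2.95 in KO, -3.44 in no Dex and -3.62 in Dex. At day 6 it was at 8.24 and 10.75 FPKM in WT, 2.70 and 2.26 in KO, 2.04 and 1.86 in no Dex, and 2.73 and 1.62 in Dex.

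Dppa5a kept the highest level of the 4 genes throughout. WT held 681.95 and 680.70 FPKM at day 2, 162.61 and 165.41 FPKM at day 4 and 148.54 and 137.12 FPKM at day 6. The change from day 2 to day 4 was -2.05 ± 0.0514 in WT, against -3.85 in KO, -3.60 in no Dex and -2.89 in Dex. Each line fell further by day 6, with changes from -0.20 in WT to -0.52 in Dex on the log2 scale.

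Dppa3 followed another course. In WT it rose from 5.41 and 5.89 FPKM to 8.42 and 7.89 FPKM at day 2 (0.46 ± 0.107, adjusted p = 0.00088), fell to 2.58 and 3.13 FPKM at day 4 and rose again to 5.88 and 4.46 FPKM at day 6 (0.67, adjusted p = 1.61e-05). KO also rose to day 2, from 16.46 and 18.23 FPKM to 23.72 and 24.96 FPKM, and then fell at both later steps. Dex fell at once, from 30.43 and 30.68 FPKM to 17.29 and 16.10 FPKM (-0.84, adjusted p = 1.23e-06), while no Dex went from 25.08 and 26.26 FPKM to 27.86 and 29.96 FPKM, a difference that was not called (adjusted p = 0.183).

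**Figure D2:**
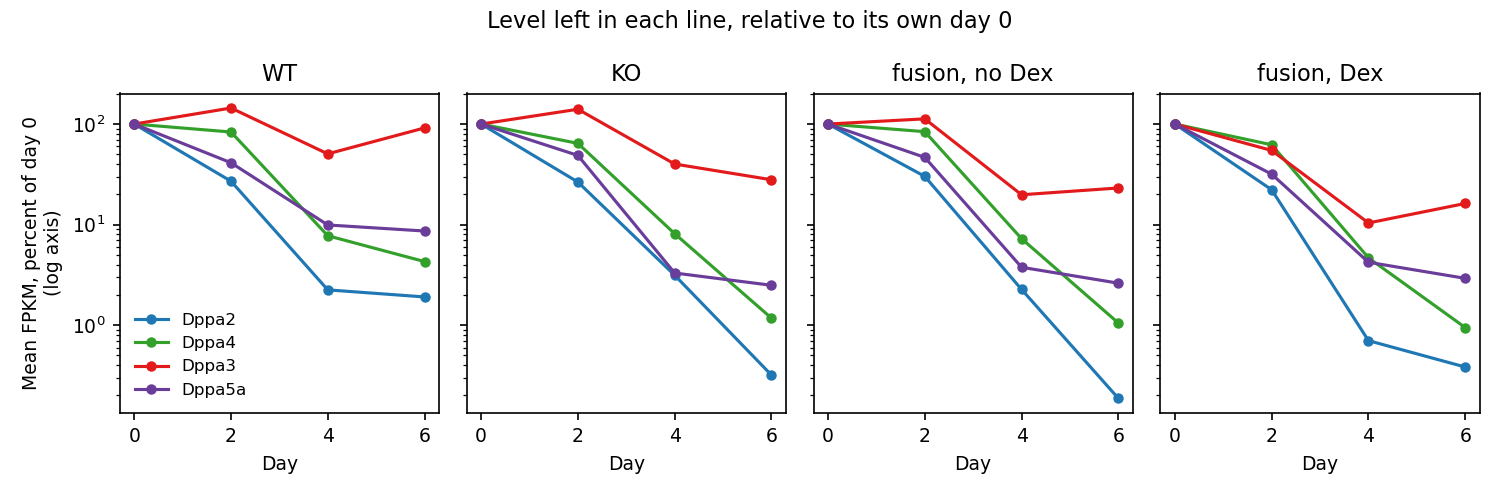
Mean FPKM of each gene as a percent of its own day 0 mean (log axis) by day, with a panel for each culture. At day 6 WT kept 1.91% of its Dppa2, 4.29% of its Dppa4 and 8.64% of its Dppa5a, and KO kept 0.319%, 1.18% and 2.49%, while Dppa3 kept 91.5% in WT and 27.9% in KO.

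At day 6 the share of the day 0 level that was left separated WT from the 3 other cultures for all 4 genes. Dppa2 kept 1.91% in WT, 0.319% in KO, 0.188% in no Dex and 0.384% in Dex. For Dppa4 these shares were 4.29%, 1.18%, 1.05% and 0.947%. Dppa5a kept 8.64% in WT and between 2.49% and 2.92% in the others. For Dppa3 the share was 91.5% in WT and 27.9%, 23.1% and 16.2% in KO, no Dex and Dex, from day 0 levels that were higher in these 3 cultures than in WT.

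The comparison of KO with WT sets the line labelled Mettl3 KO beside the control. At days 0, 2 and 4 Dppa3 was higher in KO and Dppa5a was lower, and at day 6 Dppa2, Dppa4 and Dppa5a were all lower in KO while Dppa3 was not called. Of the 16 tests of 4 genes on 4 days, 11 were called, 4 of them higher and 7 lower. By day, 2, 3, 3 and 3 of the 4 genes were called, against 48.2%, 58.9%, 60.5% and 65.1% of all genes at days 0, 2, 4 and 6. These counts are near the background. The sizes were less common, since a log2 change of at least 1 with a call was found for 1.37%, 4.72%, 5.54% and 10.0% of all genes and in 7 of the 16 tests of Dppa genes.

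Dppa3 was higher in KO until day 4. At day 0 it was at 5.41 and 5.89 FPKM in WT and at 16.46 and 18.23 FPKM in KO, with no overlap, a mean 3.07-fold higher (1.46 ± 0.107 on the log2 scale, adjusted p = 2e-09). Among all genes tested it ranked 30th from the most raised at day 0 and 108th at day 2. At day 2 the WT libraries stood at 8.42 and 7.89 FPKM and the KO libraries at 23.72 and 24.96 FPKM, 2.98-fold higher (1.47, adjusted p = 6.81e-10). At day 4 WT had 2.58 and 3.13 FPKM and KO 6.91 and 6.98 FPKM, 2.43-fold higher (1.05, adjusted p = 6.38e-08). At day 6 the libraries overlapped, at 5.88 and 4.46 FPKM in WT and 4.34 and 5.35 FPKM in KO, and the difference of -0.07 was not called (adjusted p = 0.574).

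Dppa5a was lower in KO on all 4 days. It was lower at day 0, at 1197.50 and 1218.18 FPKM against 1697.35 and 1609.04 FPKM in WT (-0.45 ± 0.0514, adjusted p = 6.3e-07), and by less at day 2, at 580.70 and 596.90 FPKM against 681.95 and 680.70 FPKM (-0.21, adjusted p = 0.00162). At day 4 KO held 39.22 and 40.54 FPKM against 162.61 and 165.41 FPKM in WT, 4.11-fold less (-2.01, adjusted p = 1.47e-16). That made it the 53rd most lowered of all genes tested at that day. At day 6 KO held 30.02 and 30.24 FPKM against 148.54 and 137.12 FPKM, 4.74-fold less (-2.21, adjusted p = 1.21e-17). No KO library reached a WT library on any day. How many of all genes had libraries that lay apart in this way was not counted, here or in the other comparisons.

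Dppa2 and Dppa4 differed little between KO and WT until day 6. At day 0 the KO and WT libraries of both genes overlapped, with 112.89 and 118.77 FPKM of Dppa2 and 211.68 and 210.15 FPKM of Dppa4 in KO, and neither was called (-0.11, adjusted p = 0.156, and -0.07, adjusted p = 0.799). For Dppa2 the call depends on a WT library, since without WT replicate 2 the change was -0.19 (adjusted p = 0.0346). At day 2 Dppa2 stood at 31.70 and 29.71 FPKM in KO against 33.94 and 33.71 FPKM in WT and was not called (-0.14, adjusted p = 0.0643), although it was after rescaling the libraries by median of ratios (-0.22, adjusted p = 0.00398). Dppa4 fell in KO at day 2, to 133.50 and 137.49 FPKM from 181.21 and 187.63 FPKM (-0.44 ± 0.175, adjusted p = 0.0368). That call is fragile, as the adjusted p was 0.0699 with a pseudocount of 0.1, 0.073 with no filter on low values and 0.0863 to 0.126 with any of the 4 libraries left out.

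At day 4 Dppa2 was slightly higher in KO, at 3.69 and 3.58 FPKM against 2.85 and 2.77 FPKM in WT (0.28 ± 0.0612, adjusted p = 0.000515). Dppa4 had KO duplicates that lay apart, at 21.52 and 12.76 FPKM, on either side of the WT values of 16.47 and 17.84 FPKM. Its change of -0.04 (adjusted p = 0.858) became -0.40 (adjusted p = 0.0474) without KO replicate 1 and 0.31 (adjusted p = 0.119) without KO replicate 2. At day 6 both genes were lower in KO. Dppa2 stood at 0.43 and 0.31 FPKM against 2.49 and 2.29 FPKM, a mean 6.46-fold less (-1.31 on the log2(FPKM + 1) scale, which understates changes at such low levels, and -2.42 with a pseudocount of 0.1, adjusted p = 4.17e-13). Dppa4 stood at 2.70 and 2.26 FPKM against 8.24 and 10.75 FPKM, 3.83-fold less (-1.59 ± 0.175, adjusted p = 1.46e-07).

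The difference between KO and WT itself changed between day 0 and day 6 for each of the genes. The change in that difference was -1.20 ± 0.0866 for Dppa2 (adjusted p = 6.52e-10, and -2.31 with a pseudocount of 0.1), -1.52 ± 0.248 for Dppa4 (adjusted p = 3.25e-05), -1.54 ± 0.151 for Dppa3 (adjusted p = 5.17e-08) and -1.75 ± 0.0727 for Dppa5a (adjusted p = 2.02e-13). All 4 were called, where 56.9% of all genes were. Extraembryonic endoderm markers, the genes of another lineage that stem cells can give, moved with the same comparison. All 9 of the list were lower in KO at days 2, 4 and 6, where 58.9%, 60.5% and 65.1% of all genes were called. At day 0, where 48.2% of all genes were called, 7 of the 9 were lower. Their summed level at day 6 was 77.6 to 78.4 FPKM in WT and 13.2 to 13.5 FPKM in KO, and at day 0 it was 23.3 to 24.6 FPKM in WT and 4.18 to 4.50 FPKM in KO. Afp, the alpha-fetoprotein gene, had means of 2.90 FPKM in WT and 0 in KO at day 6, and of 0.0050 FPKM and 0 at day 0. The part of these cells in the differences between KO and WT was not tested. Over 858 tested genes of chromosome 8, where no Dppa member lies, the median change in KO against WT was 0.0054 at day 0 and 0.35 at day 6. On chromosomes 6, 9 and 16, which hold the members, the day 6 medians were -0.082, -0.040 and -0.093. Whether the shift of chromosome 8 bears on the Dppa genes was not tested.

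**Figure D3:**
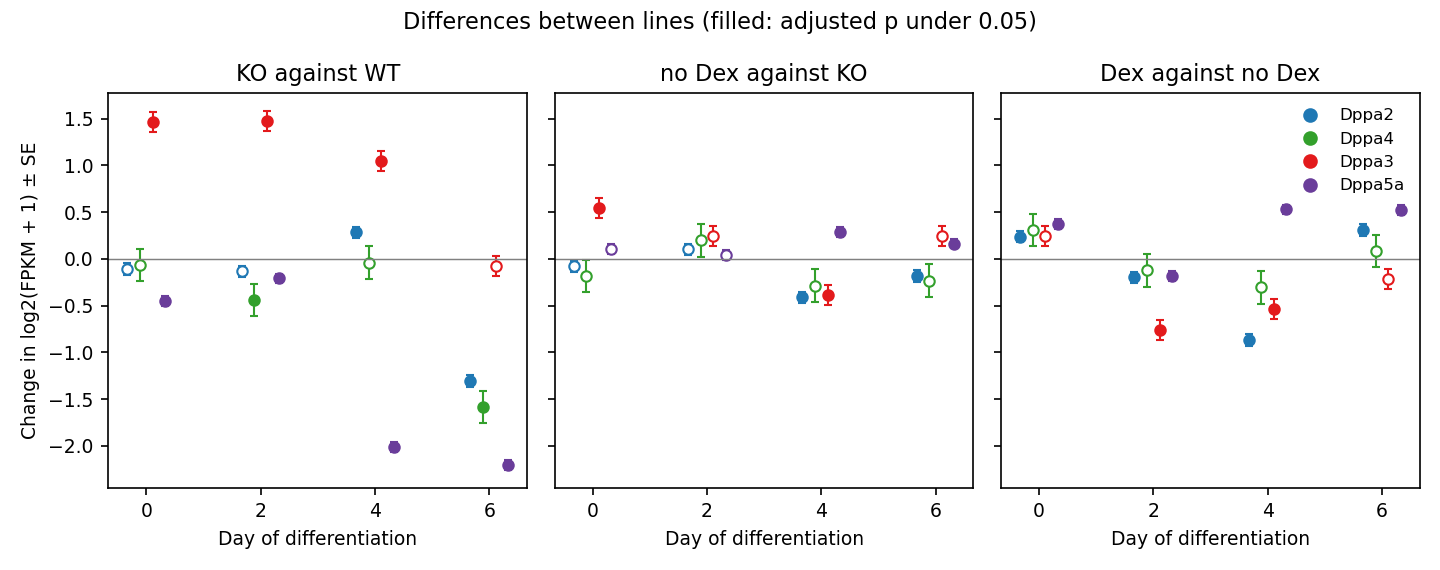
Change in log2(FPKM + 1) ± SE from limma for the 4 genes by day, with a panel for each of KO against WT, no Dex against KO and Dex against no Dex, filled points marking an adjusted p under 0.05 and 2 libraries on each side. The largest changes are in KO against WT, with Dppa3 up to 1.47 and Dppa5a down to -2.21, and no change in the other panels reaches 1 in size on this log2(FPKM + 1) scale.

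No Dex against KO sets the fusion line without Dex beside KO, both labelled Mettl3 KO. It shares the KO libraries with the comparison above, so the values of the comparisons are given side by side and not correlated. Of 16 tests 6 were called, namely 1, 0, 3 and 2 of the 4 genes at days 0, 2, 4 and 6, against 49.1%, 37%, 26.7% and 49% of all genes. At day 2, with no member called, 1 had an unadjusted p under 0.05 (Dppa3, 0.0383). With each pair of groups tested alone, Dppa4 passed at day 2 (0.20, adjusted p = 0.0242) and at day 0 (-0.19, adjusted p = 0.0199).

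Dppa3 stood at 25.08 and 26.26 FPKM in no Dex at day 0, above the 16.46 and 18.23 FPKM of KO (0.54 ± 0.107, adjusted p = 0.000303). It was thus farther from WT, which had 5.41 and 5.89 FPKM. At day 4 it was lower in no Dex, at 4.71 and 5.46 FPKM against 6.91 and 6.98 FPKM (-0.39, adjusted p = 0.011). That call was lost with the groups tested alone (adjusted p = 0.0671), without KO replicate 2 (adjusted p = 0.0562) and without no Dex replicate 1 (-0.30, adjusted p = 0.123).

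Dppa2 was also lower in no Dex at day 4, at 2.45 and 2.51 FPKM against 3.69 and 3.58 FPKM in KO (-0.41, adjusted p = 5.64e-05). At day 6 it was at 0.21 and 0.20 FPKM against 0.43 and 0.31 FPKM (-0.18, adjusted p = 0.0178, and 0.0834 with the groups tested alone). With a pseudocount of 0.1 that change was -0.61. Without KO replicate 1 it was -0.12 (adjusted p = 0.204), and without either no Dex library its adjusted p was 0.0557 or 0.072. Dppa5a was higher in no Dex at day 4, at 47.87 and 49.79 FPKM against 39.22 and 40.54 FPKM (0.29, adjusted p = 0.000381). Its rise at day 6 (0.16, adjusted p = 0.013) rests on no Dex replicate 2, since without it the change was 0.05 (adjusted p = 0.391). It was also lost without KO replicate 1 (adjusted p = 0.0602) and with the groups tested alone (adjusted p = 0.229). Dppa4 was not called at any day in the fit of all libraries, with changes from -0.29 to 0.20. Its day 4 change depends on which KO library is kept, being -0.65 without KO replicate 2 and 0.066 without KO replicate 1.

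Dex against no Dex compares cultures of the same fusion line, labelled with and without the drug that moves the fusion protein to the nucleus. The differences varied between genes and days. For the day 0 group labelled Dex no concentration of the drug is listed, and whether it was treated is not known. Day 0 differences are thus between labelled groups and are not read as a response to Dex. No culture without the fusion was given Dex. An action of the drug itself and one of the moved protein therefore cannot be told apart. Dppa5a and Dppa2 were called on all 4 days and Dppa3 at days 2 and 4, while Dppa4 was never called, 10 of 16 in all. By day, 2, 3, 3 and 2 of the 4 genes were called, against 43.4%, 44.3%, 40.2% and 42.7% of all genes. None of these changes reached 1 on the log2(FPKM + 1) scale, which understates those of Dppa2 at days 4 and 6. There its means were 2.74-fold less and 2.41-fold higher with Dex, and its changes were -1.36 and 0.94 with a pseudocount of 0.1.

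Dppa5a was higher in the group labelled Dex at day 0, at 1689.79 and 1666.64 FPKM against 1313.73 and 1279.09 FPKM (0.37 ± 0.0514, adjusted p = 8.49e-06). The Dex libraries were near those of WT on that day, which stood at 1697.35 and 1609.04 FPKM. At day 4 Dex held 73.24 and 68.53 FPKM against 47.87 and 49.79 FPKM in no Dex, 1.45-fold higher (0.53, adjusted p = 1.32e-07). At day 6 it held 50.39 and 47.73 FPKM against 31.31 and 36.57 FPKM (0.52, adjusted p = 1.18e-07). At day 2 the difference was the other way, with 534.91 and 530.76 FPKM against 597.27 and 611.92 FPKM (-0.18, adjusted p = 0.00726). After rescaling the day 2 change was -0.09 (adjusted p = 0.183), and without no Dex replicate 2 it was -0.16 (adjusted p = 0.0538).

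Dppa3 fell with Dex at day 2, to 17.29 and 16.10 FPKM from 27.86 and 29.96 FPKM (-0.76 ± 0.107, adjusted p = 1.18e-05), and at day 4, to 3.09 and 3.26 FPKM from 4.71 and 5.46 FPKM (-0.54, adjusted p = 0.00045). At day 0 it was at 30.43 and 30.68 FPKM against 25.08 and 26.26 FPKM, the highest level of any group, but the difference of 0.24 was not called (adjusted p = 0.0754, and 0.0214 with the groups tested alone). At day 6 the values were 4.61 and 5.31 FPKM against 5.38 and 6.50 FPKM (-0.22, adjusted p = 0.114). Without no Dex replicate 1 that change was -0.33 (adjusted p = 0.0465).

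Dppa2 had changes of both signs with Dex. The clearest was at day 4, with 0.86 and 0.95 FPKM against 2.45 and 2.51 FPKM, 2.74-fold less (-0.87 ± 0.0612, adjusted p = 1.71e-09), the 165th most lowered of all genes tested. It was higher in the group labelled Dex at day 0, at 127.34 and 130.51 FPKM against 109.70 and 109.00 FPKM (0.24, adjusted p = 0.00398), and lower with Dex at day 2, at 28.87 and 28.38 FPKM against 33.09 and 32.88 FPKM (-0.20, adjusted p = 0.013). Neither of these passed with a pseudocount of 0.1 (adjusted p = 0.135 and 0.201), and the day 2 change was -0.11 after rescaling (adjusted p = 0.158). Without no Dex replicate 1 or Dex replicate 2 the day 2 adjusted p was 0.0591 or 0.069. At day 6, at 0.61 and 0.38 FPKM against 0.21 and 0.20 FPKM, Dppa2 was higher with Dex (0.31, adjusted p = 0.000435), but not with the groups tested alone (adjusted p = 0.091).

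Dppa4, with changes of 0.31, -0.12, -0.30 and 0.08 at days 0, 2, 4 and 6 and a standard error of 0.175, did not pass at any day in the fit of all libraries (adjusted p = 0.174, 0.614, 0.185 and 0.754). With the groups tested alone it passed at days 0 and 2 (adjusted p = 0.0127 and 0.0283). The change of the Dex difference from day 0, when no concentration of Dex is listed, to day 6 was called for Dppa3 only (-0.46 ± 0.151, adjusted p = 0.0167), against 48.7% of all genes. That call was lost without no Dex day 0 replicate 1 (adjusted p = 0.0522), no Dex day 6 replicate 2 (adjusted p = 0.0956) or Dex day 6 replicate 1 (adjusted p = 0.0795). With a pseudocount of 0.1 Dppa2 also passed (0.70, adjusted p = 0.00271), and after rescaling Dppa5a did (0.19, adjusted p = 0.0434).

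Dex against WT, which uses the libraries of both comparisons above, shows how far the fusion line labelled Dex stood from WT. Of 16 tests 10 were called, 1, 3, 3 and 3 of the 4 genes at days 0, 2, 4 and 6, against 49.8%, 29.4%, 44.7% and 61.4% of all genes. At day 0 Dppa3 was 5.41-fold higher (2.25 ± 0.107, adjusted p = 5.18e-12), while Dppa2, Dppa4 and Dppa5a changed by 0.04, 0.05 and 0.02 and were not called. At day 2 Dppa3 was 2.05-fold higher (0.95, adjusted p = 1.62e-06), Dppa5a was lower (-0.35, adjusted p = 3.17e-05) and so was Dppa2 (-0.23, adjusted p = 0.00691, but 0.164 with a pseudocount of 0.1).

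At days 4 and 6 Dppa3 was no longer called in Dex against WT (0.12, adjusted p = 0.404, and -0.04, adjusted p = 0.76). The other genes were all lower in Dex. At day 4 Dppa2 stood at 0.86 and 0.95 FPKM in Dex and 2.85 and 2.77 FPKM in WT (adjusted p = 1.5e-10), and Dppa5a was 2.31-fold less (-1.20, adjusted p = 9.6e-13). Dppa4 changed by -0.64 at day 4 (adjusted p = 0.00586), a call lost without Dex replicate 2 (-0.48, adjusted p = 0.0848). With a pseudocount of 0.1 the changes of Dppa2 were -1.54 at day 4 and -2.09 at day 6. At day 6 Dppa2 changed by -1.18, Dppa4 by -1.74 and Dppa5a by -1.52, with adjusted p = 3.32e-12, 5.41e-08 and 6.58e-15. None of the Dex libraries reached a WT library for these 3 genes at day 6, when 61.4% of all genes were called. The share of all genes whose libraries lay apart in this way was not counted.

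Pluripotency genes give the setting in which the Dppa genes fell. Counts from lists, here and below, are to be read against the shares of all genes called. In KO against WT these were 48.2%, 58.9%, 60.5% and 65.1% at days 0, 2, 4 and 6. In Dex against no Dex they were 43.4%, 44.3%, 40.2% and 42.7%. Of 15 naive pluripotency genes, 8 were lower in KO and 4 higher at day 0, 6 lower and 4 higher at day 2, 10 lower and 2 higher at day 4, and 13 lower and 0 higher at day 6. Their median changes were -0.21, -0.11, -0.75 and -1.01, beside -0.04, 0.09, 0.07 and -0.03 over all genes tested. Klf4, a naive factor, fell from 2.59 FPKM in WT to 1.76 FPKM in KO at day 4 (-0.37, adjusted p = 0.000236), and Esrrb, an orphan nuclear receptor of the naive state, fell from 5.87 FPKM in WT to 2.33 FPKM in KO at day 6 (-1.05, adjusted p = 7.11e-14). Of 7 core pluripotency genes, 5 were lower and 1 higher at day 6. Pou5f1 then fell from 37.9 to 11.7 FPKM (-1.61, adjusted p = 1.43e-15). The part of this lower level of pluripotency genes in the day 6 falls of Dppa2, Dppa4 and Dppa5a was not tested.

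With Dex against no Dex, 13 of the 15 naive genes were lower at day 2 and none was higher, with a median of -0.52 beside -0.08 over all genes. Dppa3 fell by 0.76 at that day, Dppa2 by 0.20 and Dppa5a by 0.18. Esrrb fell by 0.91 (adjusted p = 1.89e-11). At days 0, 4 and 6 the naive list was mixed, with 8, 3 and 3 genes higher and 2, 5 and 4 lower.

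Genes of the 2-cell embryo are those that DPPA2 and DPPA4 are known to switch on. Of 21 listed, 15 reached 1 FPKM in at least 2 libraries and were tested. In KO against WT 12 were higher and none lower at day 0, when Dppa2 and Dppa4 were not called. The counts were 8 higher at day 2, 12 higher at day 4 and 6 lower at day 6, with medians of 0.46, 0.23, 0.31 and -0.18. Over all genes 48.2%, 58.9%, 60.5% and 65.1% were called at days 0, 2, 4 and 6. Of those calls 38.2%, 63.8%, 60.3% and 47.5% were higher. Zscan4d rose from 5.25 to 12.74 FPKM at day 0 (1.14, adjusted p = 4.6e-09) and Zscan4c from 12.68 to 21.13 FPKM (0.69, adjusted p = 7.63e-08). Most of the tested genes are Zscan4 and Usp17l copies, near-identical to each other, so their values are uncertain where reads were shared among them. After day 0 the list was near its limit. Its 21 genes summed to 88.0 to 90.2 FPKM in WT and 137.6 to 144.0 FPKM in KO at day 0, but to 1.61 to 1.85 FPKM in WT and 7.34 to 8.04 FPKM in KO at day 4. The Dux row, listed as Duxf3, had means of 0.40 FPKM in WT and 0.44 FPKM in KO stem cells and was not tested. With Dex against no Dex at day 0, 3 were higher and 4 lower, where 43.4% of all genes were called.

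DNA methylation is the process on which DPPA3 acts. Of 9 genes of DNA methylation and its removal, 8 were lower and 1 higher in KO at day 0, with a median of -0.39, where 38.2% of all genes called were higher. The counts were 5 lower and 2 higher at day 2, 5 lower and 4 higher at day 4, and 5 lower and 2 higher at day 6. Uhrf1, whose protein DPPA3 binds, fell from 183.1 to 151.5 FPKM (-0.27, adjusted p = 2.55e-08) and Dnmt1, the maintenance methyltransferase, from 89.4 to 67.9 FPKM (-0.39, adjusted p = 4.33e-11). The de novo side moved more. Dnmt3b fell from 60.1 to 31.7 FPKM (-0.90, adjusted p = 4.59e-15) and Dnmt3l, its cofactor without catalytic activity, from 221.8 to 88.7 FPKM (-1.31, adjusted p = 3.79e-12). Uhrf2, a relative of Uhrf1, was the gene that rose (0.28, adjusted p = 0.0069). Uhrf1, Dnmt1, Dnmt3a, Dnmt3b and Dnmt3l were lower in KO on all 4 days. Tet1 and Tet3, which oxidise methylated cytosine, were lower at day 0 (-0.55 and -0.39) and higher at day 4 (0.90 and 0.80).

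At day 0, when no concentration of Dex is listed, the groups labelled Dex and no Dex differed in the other direction for these enzymes. In the group labelled Dex 7 of 9 were higher and none lower, where 43.4% of all genes were called. The median was 0.39 beside 0.04 over all genes. Dnmt3b was higher in that group by 0.95 (adjusted p = 6.57e-15), at 44.0 FPKM against 22.2 FPKM, and Dnmt3l by 0.41, at 219.5 FPKM against 164.6 FPKM. Dppa3 was not nearer to WT in that group, where it was at 30.43 and 30.68 FPKM. At day 2, when Dppa3 was lower with Dex, 4 of the 9 were lower and 1 was higher, with a median of -0.12. Dnmt3b was the higher one (0.27), and Tet1 was among the lower (-0.75). The counts were 4 higher and 2 lower at day 4, and 1 higher and 4 lower at day 6.

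Germline genes, many of which are known to be kept silent by promoter DNA methylation, were tested for 15 of 18 listed. In KO against WT 8 were lower and 3 higher at day 0, and at day 6 13 were lower and none higher, with medians of -0.29 and -0.57. On these days 48.2% and 65.1% of all genes were called. Tuba3a, a testis tubulin, went from 125.3 to 72.6 FPKM at day 0 and from 77.7 to 11.4 FPKM at day 2 (-2.66, adjusted p = 2.37e-14), while Dppa3 was 2.98-fold higher in KO. Tuba3a does not stand for the list, whose day 2 means differed in both directions. In WT and KO they were 5.20 and 14.75 FPKM for Tdrkh and 25.47 and 35.29 FPKM for Rpl10l. For Hormad1 they were 9.70 and 4.375 FPKM, and for Mael 11.675 and 5.58 FPKM. Dazl, an RNA-binding protein of germ cells, went from 11.9 to 5.70 FPKM at day 0 (-0.94, adjusted p = 3.23e-08), and Tex19.1 rose from 31.4 to 42.8 FPKM (0.44, adjusted p = 0.00137). Of 8 markers of primordial germ cells, the cells that Dppa3 is known to mark, 7 were tested, and 1 was higher and 1 lower in KO at day 0. At day 2, 4 were higher and 1 lower with a median of 0.51, at day 4, 3 were higher and 2 lower, and at day 6, 2 were higher and 1 lower. From day 0 to day 6 the shares of all genes called were 48.2%, 58.9%, 60.5% and 65.1%. Nanos2 was at or under 0.05 FPKM in every group mean. Prdm14 had means of 6.94 FPKM in WT and 8.16 in KO, and Tfap2c of 26.7 and 28.2 FPKM, at day 0.

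**Figure D4:**
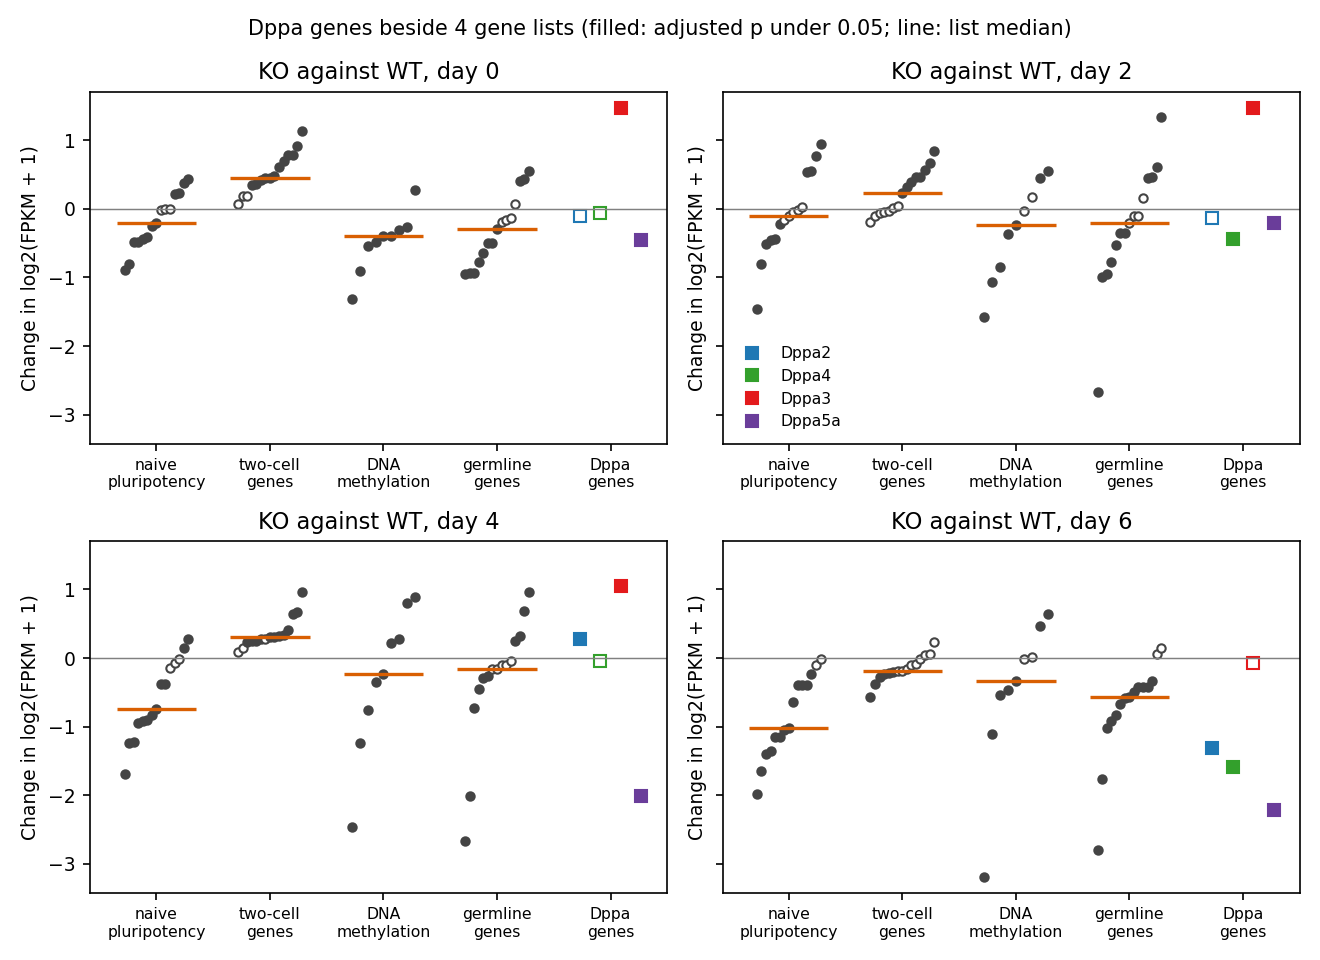
Change in log2(FPKM + 1) in KO against WT on each day for the tested genes of 4 lists (points sorted within each list, with a line at the median) and for the 4 Dppa genes (squares), filled at an adjusted p under 0.05, 2 libraries on each side. Dppa3 lies above every gene of the naive, DNA methylation and germline lists at day 0, and Dppa2, Dppa4 and Dppa5a lie below the medians of all 4 lists at day 6.

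Of 6 genes listed as neighbours of Dppa3, 1 was lower and none higher in KO at day 0. At days 2 and 4, 4 were higher and 1 lower, with medians of 0.69 and 0.39, and at day 6, 3 were higher and 3 lower. Shares of all genes called were 48.2%, 58.9%, 60.5% and 65.1% at days 0, 2, 4 and 6. Slc2a3, a glucose transporter, was the lower one at day 0 (-0.46) and rose at day 2 from 48.5 FPKM in WT to 102.6 FPKM in KO (adjusted p = 1.1e-17). Nanog was not called at day 0 (0.11, adjusted p = 0.058) although Dppa3 was 3.07-fold higher in KO. It was higher in KO at day 2, at 33.4 FPKM against 15.7 FPKM in WT (1.04, adjusted p = 3.54e-13), and lower at day 6 (-0.84, adjusted p = 2.74e-12). Gdf3, a ligand of the TGF-beta family on the other side of Dppa3, was not called at day 0 and was lower in KO from day 2 on (-0.47, -0.81 and -0.86). With Dex, Nanog fell at days 2 and 4 (-0.88 and -0.96), the days on which Dppa3 also fell. Beside Dppa2 and Dppa4, Morc1, a gene of transposon silencing in germ cells, was lower in KO on every day, most at day 2, at 4.51 FPKM against 18.7 FPKM (-1.84, adjusted p = 2.4e-14). Cd47, of the same list, differed in direction by day. Its means were 1.61 FPKM in WT and 1.47 in KO at day 0, and 4.32 and 6.03 FPKM at day 2. At day 4 they were 8.78 and 8.76 FPKM, and at day 6 12.95 and 7.25 FPKM. Trat1 and Retnla were at or near 0 in all groups. Beside Dppa5a, Ooep and Khdc3, KH-domain genes of the maternal complex, were lower in KO on all 4 days. At day 6 Ooep went from 1.75 FPKM in WT to 0.37 FPKM in KO (adjusted p = 3.98e-12) and Khdc3 from 2.42 to 0.40 FPKM (adjusted p = 2.67e-11). Ddx43, of the same list, had means of 4.005 FPKM in WT and 3.475 in KO at day 0, and of 1.375 and 2.175 FPKM at day 2. Eef1a1, farther along, is a translation factor and had means of 5382 FPKM in WT and 6041 in KO stem cells.

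The pattern of a gene over the 16 group means was compared with that of 11574 tested genes by Pearson's r of log2(FPKM + 1). These r are descriptions over groups that share a time course and carry no p. Among the members, r was 0.97 for Dppa2 and Dppa4, 0.97 for Dppa2 and Dppa5a and 0.95 for Dppa4 and Dppa5a. Dppa3 had r of 0.71 to 0.76 with the 3 others. The genes most like Dppa2 were Smagp, Triml2, Inpp5d, Dennd2c and Zfp296, at r of 0.991 to 0.993. For Dppa4 they were Gm32885, Hsf2bp, Anxa11, Impa2 and EU599041, at 0.989 to 0.992. For Dppa5a they were Gm4779, Shmt1, Lncenc1, Rinl and Spp1, at 0.987 to 0.990. Ranking by Spearman's rho named other genes for these 3 members, with 0 of 5 shared. No gene was as close to Dppa3. The nearest, Gm12617, had an r of 0.91, followed by 9430038I01Rik, Mrpl33, Mrps24 and Kif20b, and 3 of these 5 were shared with the ranking by rho.

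METTL3 methylates adenosines in a short sequence context of which GGACT is a common form. The longest coding transcript of each gene in GENCODE M21 was searched for GGACT on the transcript strand. It was also searched for GGAC, which is part of GGACT, so each GGACT match is also a GGAC match. Dppa2 held 1 GGACT, where 91.7% of genes with transcripts within 10% of its length hold at least 1 and their median is 3. Dppa4, Dppa3 and Dppa5a held 0, where 82.7%, 63.3% and 43.8% of genes of like length hold at least 1. GGAC occurred 4 times in Dppa2, 5 times in Dppa4, 3 times in Dppa3 and 0 times in Dppa5a. The medians of genes of like length were 10, 6, 4 and 2. For Dppa5a, 87.3% of genes of like length hold it. A match is not a methylated site, other sequence forms were not searched, and no methylation was measured in these libraries.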

How the data were processed

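PolyA RNA of 32 libraries (16 groups of 2) was sequenced paired-end. The submitters' processing notes name STAR, Cuffdiff and mm10, with no version or role. The deposited table holds FPKM computed by the authors, rounded to 2 decimals. 99.4% of its rows matched GENCODE M21. Groups were taken from the sample titles. Since 1 fragment gives a fixed step in FPKM for a gene of known length, the spacing of low values over 7406 single-transcript genes gave each library's depth, after subtracting 250 to 310 nt from the transcript length. Between 91.3% and 94.4% of these values lay within 0.2 of a whole fragment, where 40% would with no steps. At that depth 3 fragments equal 0.026 to 0.053 FPKM for Dppa2 and 0.17 to 0.35 FPKM for Dppa5a, counting error only. All 32 libraries entered a single fit (R 4.3.3, limma 3.58.1, lmFit, then contrasts, then eBayes with trend = TRUE) on log2(FPKM + 1), over 16276 genes with at least 1 FPKM in at least 2 libraries, with 16 residual degrees of freedom and two-sided Benjamini-Hochberg adjusted p-values under 0.05. There were 30 comparisons. The scripts were tested on simulated data. Figures were drawn with matplotlib 3.10.9. Genes named are the members, other Dppa rows, Mettl3, the 5 genes most like each member (symbol and a highest group mean of at least 5 FPKM) and genes of 14 lists. The members and lists were chosen with earlier results of these data known. Results were recomputed with a pseudocount of 0.1, without the filter, with a mean of at least 5 FPKM, median-of-ratios rescaling, the compared groups alone, a replicate block, each library left out and a change of at least 1.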

Additional observations from a re-analysis of the deposited data

Results flagged for a closer look

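The difference between KO and WT was not the same at day 6 as at day 0 for any of the 4 genes, by limma's test of the change in that difference. On the log2(FPKM + 1) scale it moved by -1.20 for Dppa2 (-2.31 with a pseudocount of 0.1), by -1.52 for Dppa4, by -1.54 for Dppa3 and by -1.75 for Dppa5a. Dppa3 went from 3.07-fold higher in KO to no called difference, while Dppa2, Dppa4 and Dppa5a went from a small or uncalled difference to 6.46-fold, 3.83-fold and 4.74-fold less in KO. The difference between Dex and no Dex also changed for Dppa3 from day 0, when no concentration of Dex is listed, to day 6 (-0.46). It went from 0.24 to -0.22, neither of them called. Its adjusted p of 0.0167 rose to between 0.0522 and 0.0956 without any of 3 libraries named above.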

How the results depend on the processing

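Directions held for all 120 tests of a Dppa gene under every alternative but rescaling and leaving out a library. Rescaling by median of ratios turned 1 uncalled value, Dppa2 in no Dex against KO at day 0, to 0.024, and shifted all genes by 0.11 there and by -0.12 from day 0 to day 2 in no Dex. A required change of at least 1 left 7 calls in KO against WT, 0 in no Dex against KO, 0 in Dex against no Dex, 6 in Dex against WT and 29 of 48 in the day steps. It removed in KO against WT Dppa5a at days 0 (-0.45) and 2 (-0.21), Dppa4 at day 2 (-0.44) and Dppa2 at day 4 (0.28), and all calls in Dex against no Dex, which were 0.24, -0.20, -0.87 and 0.31 for Dppa2, 0.37, -0.18, 0.53 and 0.52 for Dppa5a, -0.76 and -0.54 for Dppa3, and -0.46 for the change of Dppa3 from day 0 to day 6.

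A pseudocount of 0.1 ended the calls of Dppa4 in KO against WT at day 2 (-0.44) and of Dppa2 with Dex at days 0 (0.24) and 2 (-0.20), and brought in the day 6 minus day 0 change of Dppa2 with Dex (0.70). It also enlarged by over 1.5 times called changes of Dppa2 at its low levels of days 4 and 6, in KO against WT at day 6 (-1.31 to -2.42) and its day 6 minus day 0 change (-1.20 to -2.31), with Dex at days 4 (-0.87 to -1.36) and 6 (0.31 to 0.94), in no Dex against KO at day 6 (-0.18 to -0.61), in Dex against WT at days 4 (to -1.54) and 6 (-1.18 to -2.09), and from day 4 to day 6 in KO (-1.76 to -3.00), no Dex (-1.53 to -3.08) and Dex (-0.35 to -0.78). With no filter, when 34331 genes were tested, Dppa4 at day 2 (-0.44) was not called. Rescaling brought in Dppa2 in KO against WT at day 2 (-0.22) and the day 6 minus day 0 change of Dppa5a with Dex (0.19). In no Dex against KO it brought in Dppa5a at day 0 (0.10 to 0.21, adjusted p = 0.0023) and Dppa3 at day 6 (0.28, adjusted p = 0.0401). It ended the day 2 calls with Dex of Dppa2 (-0.11) and Dppa5a (-0.090). The compared groups alone, with 2 residual degrees of freedom, brought in with Dex Dppa4 at days 0 (0.31) and 2 (-0.12) and Dppa3 at day 0 (0.24), and ended Dppa2 at day 6 (0.31). For these changes of call the cause was not tested.

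With each library left out in turn, values in KO against WT ran from -0.19 to -0.030 for Dppa2 at day 0, -0.47 to -0.42 for Dppa4 at day 2, -0.40 to 0.31 for Dppa4 at day 4 and -0.24 to 0.093 for Dppa3 at day 6. With Dex against no Dex they ran from -0.21 to -0.19 for Dppa2 and -0.20 to -0.16 for Dppa5a at day 2, and from -0.33 to -0.10 for Dppa3 and -0.17 to 0.34 for Dppa4 at day 6. The day 6 minus day 0 changes with Dex ran from -0.040 to 0.18 for Dppa2, -0.48 to 0.032 for Dppa4, -0.58 to -0.34 for Dppa3 and 0.041 to 0.26 for Dppa5a. Uncalled values that turned sign were Dex against WT at day 0, from -0.035 to 0.12 for Dppa2, -0.010 to 0.12 for Dppa4 and -0.016 to 0.061 for Dppa5a, Dppa3 at day 6 (-0.21 to 0.12) and Dppa4 in no Dex against KO at day 4 (-0.65 to 0.066). A group left with 1 library was assumed to vary like the others.

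No shift shared by replicate number was seen, as the correlation of duplicate differences between groups ran from -0.09 to 0.13. These correlations cannot show whether samples of the same number were handled together. The replicate block changed 1 call, bringing in Dppa3 in no Dex against KO at day 6 (0.25, adjusted p = 0.048). A mean of at least 5 FPKM brought in the same call (adjusted p = 0.0489). Over all genes, the compared groups alone called 14.0% to 26.7% in 5 comparisons against 26.7% to 49.8% in the fit of all libraries. A mean of at least 5 FPKM called 6469 to 7339 genes in 10 day steps, with 9412 tested. A change of at least 1 left 38 to 2043 genes. Depth limits Dppa2 most, at about 16 fragments in its lowest library. Among the 5 genes most like each member, a pseudocount of 0.1 kept 3, 2, 5 and 3 for Dppa2, Dppa4, Dppa3 and Dppa5a.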
